A study of Homo sapiens with 2 samples.

Results

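Aminoacyl-tRNA synthetases are the enzymes that join each amino acid to its transfer RNA. They were described here in PLC-8024 hepatocellular carcinoma cells with and without forced expression of GDF1. Members were taken by symbol alone, without use of a measured value. A member is named by the letter of an amino acid followed by ARS, with or without a closing digit, or is EPRS, FARSA or FARSB. The rule found 37 genes of the 58174 listed. Of these, 20 code for cytosolic enzymes, and 17, whose symbols end in 2, code for mitochondrial enzymes. All 37 had at least 1 TPM (the length-scaled unit of transcript abundance) in either library, as did 14929 genes in all.

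Each synthetase recognises its own amino acid and the matching transfer RNAs, and the charged transfer RNA then brings that amino acid to the ribosome. Human cells translate in the cytosol and, separately, in mitochondria, and nuclear genes code for the enzymes of both places, mostly as distinct genes. Some cytosolic enzymes are held together in the multi-synthetase complex, while others act as free enzymes. The enzymes also fall into class I and class II by the fold of their catalytic domain. Many cytosolic synthetase genes are known targets of ATF4, the transcription factor of the amino acid response.

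PLC-8024 is a human liver cancer cell line with low GDF1 of its own, and GDF1 is a ligand of the TGF-beta superfamily. The control cells, PLC-8024-CTR (genotype Control), carried a control vector, and PLC-8024-GDF1 cells (genotype GDF1-overexpression) carried full-length human GDF1 brought in by virus. The methods describe puromycin selection of the transduced cells, which makes them a selected population. The paper reports higher GDF1 protein in the GDF1 cells by western blot. There was 1 library per condition, so no difference below has a replicate check, no test was made, and each value describes these libraries only.

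TPM scales a gene's reads by its length and by the library, so that levels can be set side by side between genes. The values sum to the same total in both libraries and keep no sequencing depth, so no counting error is given. The forced gene GDF1 was listed at 2.1 TPM in control cells and 4.64 TPM in GDF1 cells, and CERS1, which lies at the same locus, at 13.3 and 9612 TPM. Which transcript the reads listed for CERS1 came from was not tested. Of 9 markers of other cell types, 4 (PTPRC, VWF, COL1A2 and ACTA2) were listed at 0.0001 TPM in both libraries, and the summed level of the 9 was 58.3 TPM in control and 37.2 TPM in GDF1 cells, mostly from CD68 (33.1 and 13.2 TPM) and PECAM1 (23.2 and 22.2 TPM). Of 12 hepatocyte markers, 9 were lower in PLC-8024-GDF1, where 63.3% of all 14929 genes were. The summed level of the 12 went from 11873 to 9137 TPM, with SERPINA1 the most abundant (5308 and 2915 TPM). The 9 include AFP (31.4 and 9.75 TPM), which the paper instead counts as a liver progenitor marker. By qPCR and western blot the paper reports liver progenitor markers as raised by GDF1 in these cells, the direction opposite to that of AFP here. It also reports hepatic markers as lowered, with ALB and TTR among those measured by qPCR, and both were lower here. ALB, the defining product of hepatocytes, stood at 15.0 and 6.07 TPM, and TTR at 7.17 and 0.34 TPM. The 3 markers that were higher were TF (1318 and 1434 TPM), KRT8 (1424 and 1777 TPM) and KRT18 (1005 and 1224 TPM). The part of these differences in the synthetase values was not tested. In bulk RNA, fewer cells that express a gene and less RNA per cell cannot be told apart.

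Changes are given as log2 of TPM plus 1 in PLC-8024-GDF1 over TPM plus 1 in PLC-8024-CTR, and a gene is said to have risen or fallen when this value passed 1 or -1, a 2-fold change. On this scale the median of all 14929 genes was -0.20, and each change below is best read against that shift. Multiplying PLC-8024-GDF1 by 1.15 sets the median plain ratio of genes with at least 5 TPM to no change, and such values are called rescaled.

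Most synthetase transcripts were lower in GDF1-expressing cells. The median log2 change of the 37 members was -0.46, and their range ran from -1.53 to 0.86. Of the 37, 30 were lower and 7 were higher, so that 81.1% were lower where 63.3% of all genes were. Among the 11792 protein-coding genes, 67.4% were lower and the median was -0.25. After rescaling, the median was -0.26, and 27 members were lower, beside 51.6% of all genes. The share of synthetases in all TPM was 0.259% in PLC-8024-CTR and 0.205% in PLC-8024-GDF1.

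IARS, TARS, MARS2, LARS2, HARS2 and IARS2 fell at least 2-fold. These 6 are 16.2% of the members, and 9.61% of all genes fell as far. No member rose 2-fold, and 4.82% of all genes did. With rescaled TPM the genes past 2-fold were IARS, LARS2 and MARS2, which were lower, and WARS, which was higher, and the background shares were 6.85% lower and 6.97% higher. The genes nearest the threshold were IARS2, just inside it at -1.0, and NARS, just outside it at -0.97.

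**Figure D1:**
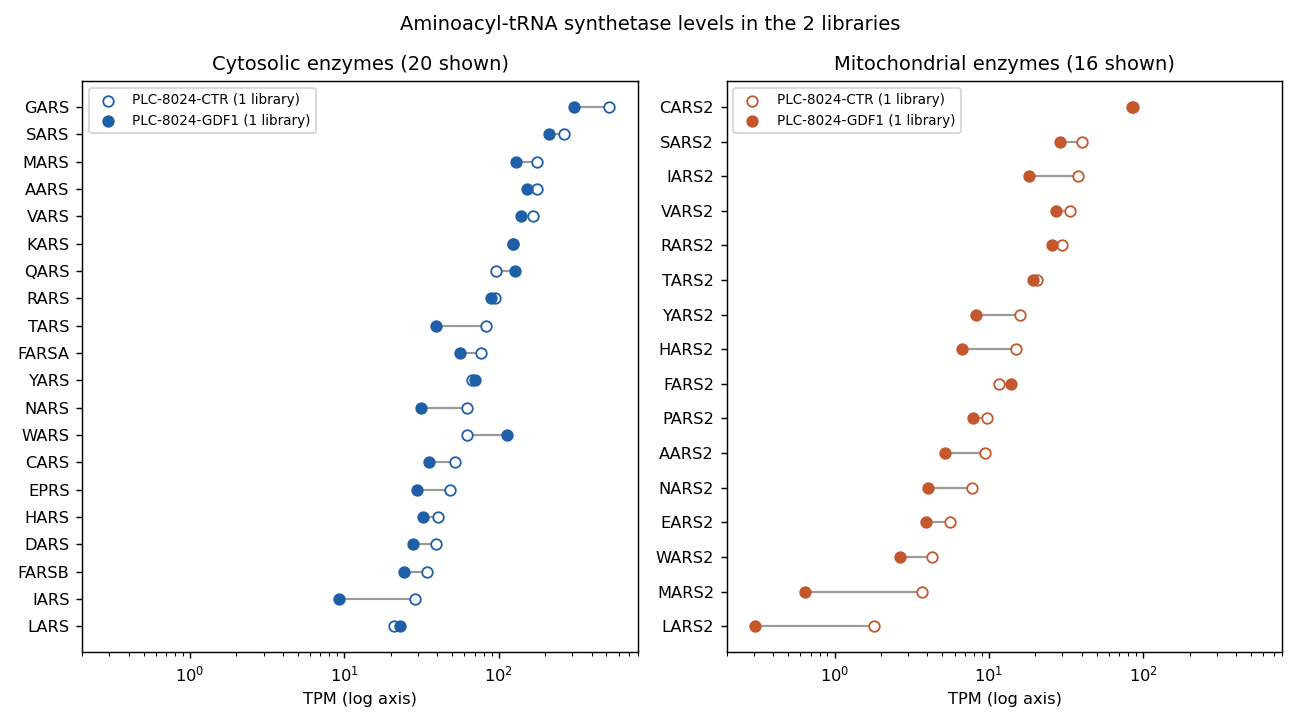
TPM of the synthetases on a log axis in control and GDF1 cells, with cytosolic and mitochondrial enzymes in separate panels and 1 library per point. GARS is highest in both libraries, LARS2 is lowest in both, and most PLC-8024-GDF1 points lie left of their control points.

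The order of levels within the family was nearly the same in both libraries, with a Spearman rho of 0.98 over the 37 genes. This is a description, since the points share their libraries. GARS, which charges glycine and whose gene serves the cytosol and mitochondria, was the most abundant, with 521.9 TPM in control cells and 308.6 TPM in GDF1 cells. SARS, the seryl enzyme, followed with 266.1 and 210.5 TPM. At the low end stood WARS2, MARS2 and LARS2, each under 5 TPM in both libraries. In PLC-8024-CTR the median level of the mitochondrial enzymes was below that of the cytosolic ones, at 15.0 and 72.2 TPM. The plot of TPM by enzyme shows that the ranges overlap. CARS2, at 84.2 TPM in PLC-8024-CTR, was above the cytosolic median.

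The 20 cytosolic enzymes had a median log2 change of -0.39, and 15 of them (75%) were lower. Among all genes 63.3% were lower, and among protein-coding genes 67.4%. Their summed level went from 2240 to 1776 TPM, a log2 ratio of -0.33. GARS alone made up 23.3% of that sum in PLC-8024-CTR and 17.4% in PLC-8024-GDF1. Without it the log2 ratio of the sum was -0.23. With rescaled TPM the median was -0.19 and 13 of the 20 were lower, beside 51.6% of all genes.

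IARS, the cytosolic isoleucyl enzyme (ENSG00000196305, minus strand of GRCh37, chr9:94972489-95056136), fell from 28.5 to 9.21 TPM (log2 change -1.53). Of all genes tested, 3.09% had a lower change. TARS, the threonyl enzyme (ENSG00000113407, plus strand, chr5:33440802-33468196), fell from 82.4 to 39.6 TPM (log2 change -1.04). Both are free of overlap with another expressed gene. The change of IARS passed 2-fold under rescaling too (-1.34), while that of TARS did not (-0.84).

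NARS, the asparaginyl enzyme, went from 62.8 to 31.6 TPM, a change of -0.97. GARS had a change of -0.76. EPRS, a single protein that charges both glutamate and proline, went from 48.2 to 29.8 TPM, a change of -0.68. These were the next lowest of the cytosolic enzymes, and none of the 3 passed 2-fold. CARS (cysteine), DARS (aspartate), FARSB, MARS (methionine) and FARSA lay between -0.56 and -0.45. SARS, HARS (histidine), VARS (valine) and AARS (alanine) lay between -0.34 and -0.20, about where the median gene lay, and AARS came to 0.0055 after rescaling.

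FARSA and FARSB code for the alpha and beta subunits of 1 enzyme, the cytosolic phenylalanyl synthetase. FARSA had 77.1 TPM in control cells and 56.2 TPM in GDF1 cells. FARSB had 34.1 and 24.2 TPM. The subunits moved side by side, with changes of -0.45 and -0.48, and their TPM ratio was 2.26 in the control cells and 2.32 in the GDF1 cells.

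At the other end, 5 cytosolic enzymes were higher or level. WARS, the tryptophanyl enzyme and a known interferon-induced gene (ENSG00000140105, minus strand, chr14:100800127-100843142), went from 62.4 to 114.0 TPM. Its log2 change of 0.86 was the highest of the family, and 93.4% of all genes had a lower one. After rescaling it was 1.07, which passes 2-fold. WDR25, on the opposite strand, shares 287 exonic bases with WARS and went from 3.95 to 8.96 TPM. Whether reads of the pair were told apart was not tested, since the strand setting of the counting is not given in the sources used here.

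QARS, the glutaminyl enzyme, went from 96.0 to 127.7 TPM, a change of 0.41. LARS, the leucyl enzyme, was at 20.9 and 22.8 TPM, a change of 0.12. YARS (tyrosine) and KARS (lysine, for the cytosol and mitochondria) differed little between the libraries, with changes of 0.05 and 0.0032. RARS, the arginyl enzyme, was at 95.2 and 89.5 TPM, and its change of -0.09 turned to 0.12 after rescaling.

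The multi-synthetase complex holds EPRS, IARS, LARS, QARS, MARS, KARS, RARS and DARS. These 8 ranged from IARS, the lowest of all members, to QARS, with a median of -0.27. Of the 8, 5 were lower, about the 63.3% of all genes, and 4 after rescaling, where 51.6% of all genes were. Their summed level went from 630.1 to 560.1 TPM, a log2 ratio of -0.17. The other 12 cytosolic members had a median of -0.39, and 10 were lower. Their sum, which includes GARS (521.9 and 308.6 TPM), went from 1610 to 1216 TPM, a log2 ratio of -0.40. After rescaling, the median of the complex was -0.07. The ratios between the transcripts of the complex thus differed between the libraries. The difference between both sets was not tested.

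The 3 scaffold proteins of the complex were all lower, where 63.3% of all genes were, and none passed 2-fold. After rescaling 2 of the 3 were lower, beside 51.6% of all genes. EEF1E1 went from 65.5 to 39.8 TPM, a change of -0.71. AIMP2 went from 34.4 to 22.6 TPM, a change of -0.58. AIMP1 was at 18.1 and 16.5 TPM, and its change of -0.12 turned to 0.07 after rescaling.

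By catalytic class, the 9 cytosolic enzymes of class I, with EPRS left out for its double activity, had a median change of -0.09, and 5 of them were lower. The 10 of class II had a median of -0.46, and 9 were lower. Of all genes, 63.3% were lower. The summed level of the class I enzymes had a log2 ratio of -0.06, against -0.50 for class II. The class I sum includes WARS (62.4 and 114.0 TPM), and the class II sum includes GARS (521.9 and 308.6 TPM). After rescaling the class I median turned to 0.12, and that of class II was -0.26. In mitochondria the class medians were -0.53 for 9 enzymes of class I and -0.60 for 8 of class II. The differences between the classes were not tested.

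The 17 mitochondrial enzymes had a median log2 change of -0.53, and 15 (88.2%) were lower, beside 63.3% of all genes. The range ran from -1.50 to 0.24. Their summed level went from 348.2 to 268.6 TPM, a log2 ratio of -0.37. With rescaled TPM the median was -0.37 and 14 were lower, beside 51.6% of all genes. MARS2, LARS2, HARS2 and IARS2 fell 2-fold. These are 23.5% of the 17, beside 10% of the cytosolic enzymes and 9.61% of all genes. With rescaled TPM 2 of the 17 and 1 of the 20 were past 2-fold lower, beside 6.85% of all genes.

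MARS2, the mitochondrial methionyl enzyme (ENSG00000247626, plus strand, chr2:198570093-198573119), had 3.66 TPM in control cells and 0.648 TPM in GDF1 cells. Its log2 change was -1.50, and the plain log2 ratio was -2.5. LARS2, the leucyl enzyme (ENSG00000011376, plus strand, chr3:45430053-45596218), had 1.82 and 0.304 TPM, a change of -1.11 and a plain log2 ratio of -2.58. These were the least abundant members, and without the pseudocount they had the largest drops of the family.

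HARS2, the histidyl enzyme (ENSG00000112855, plus strand, chr5:140071015-140078890), went from 15.0 to 6.74 TPM, a change of -1.04. It lies head to head with HARS (minus strand, chr5:140052620-140071122), and the RefSeq start sites of the neighbours are 85 bases apart. HARS went from 40.6 to 32.3 TPM, a change of -0.32, so the neighbours differed in their change. HARS2 shares 108 exonic bases with HARS and 152 with ZMAT2, and reads in these stretches may count for either gene. IARS2, the isoleucyl enzyme (ENSG00000067704, plus strand, chr1:220267474-220321383), went from 37.7 to 18.3 TPM.

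YARS2, NARS2 and AARS2, the mitochondrial enzymes for tyrosine, asparagine and alanine, lay between -0.87 and -0.75. WARS2, SARS2 and EARS2 lay between -0.53 and -0.43, and VARS2, PARS2 and RARS2 between -0.27 and -0.20. TARS2 was at 20.6 and 19.4 TPM, and its change of -0.08 turned to 0.12 after rescaling. CARS2, the most abundant mitochondrial member, was level at 84.2 and 85.4 TPM, a change of 0.02. FARS2, which works as a single chain unlike its cytosolic counterpart, was at 11.7 and 13.9 TPM, a change of 0.24.

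**Figure D2:**
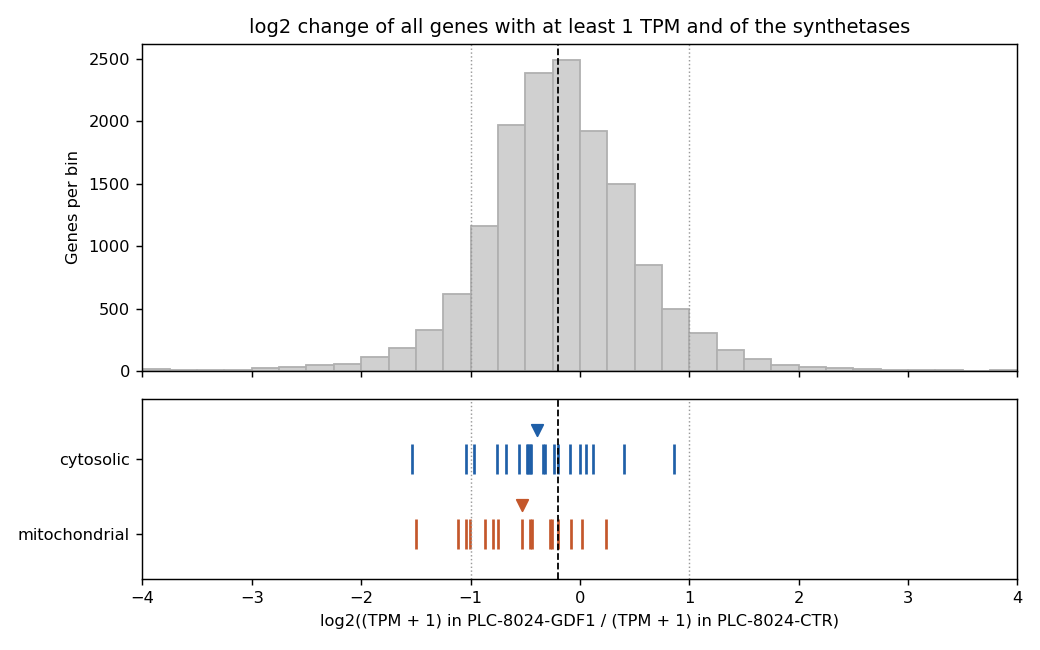
Upper panel, number of genes per bin of log2 change for all 14929 genes with at least 1 TPM. Lower panel, the log2 change of the cytosolic and mitochondrial synthetases on the same axis, with triangles at the group medians (log2 of TPM plus 1, PLC-8024-GDF1 over PLC-8024-CTR). The medians of the cytosolic (-0.39) and mitochondrial (-0.53) enzymes lie left of the median of all genes (-0.20), and WARS stands alone at the right.

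Set against each other, the mitochondrial median was lower than the cytosolic one by a log2 difference of -0.13. This difference did not hold in sign: with the 15 members that overlap another expressed gene left out, it was 0.02. It was -0.05 among the members with at least 5 TPM and -0.28 with plain TPM ratios. Mitochondrial enzymes made up 13.5% of synthetase TPM in PLC-8024-CTR and 13.1% in PLC-8024-GDF1. The histogram of changes shows both groups spread over nearly the same range below 0, with more of the higher changes among the cytosolic enzymes.

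Enzymes for the same amino acid can be paired across the compartments, with EPRS paired with EARS2 and with PARS2, and each FARS subunit with FARS2. Of the 18 pairs, both members were lower in 12. Of all genes taken singly, 63.3% were lower, and 51.6% after rescaling. The mitochondrial member had the lower change in 10 pairs and the cytosolic one in 8, and the median difference was -0.07. In the plot of paired changes the points therefore lie on both sides of the line of equal change.

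**Figure D3:**
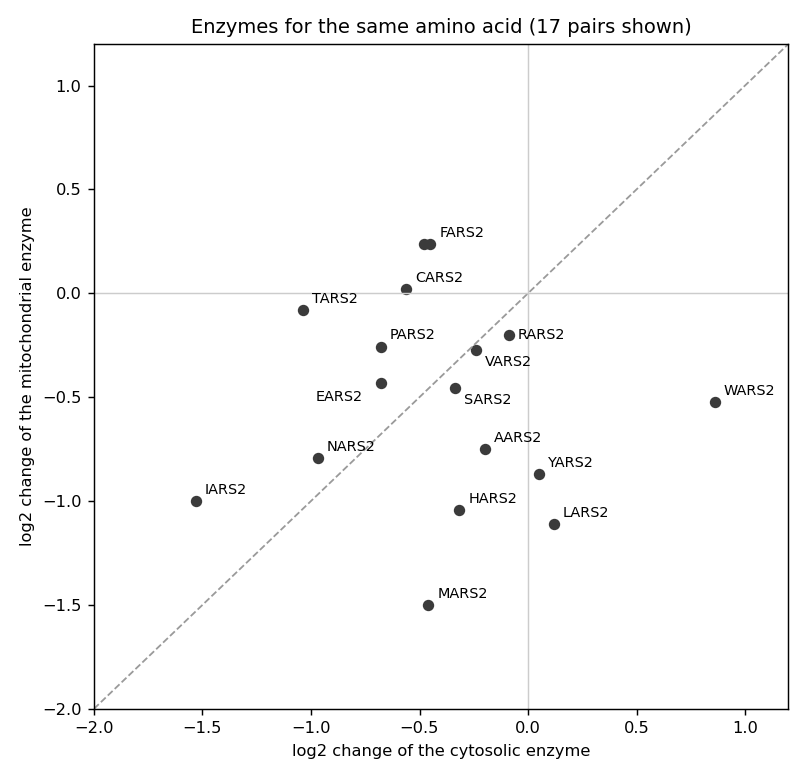
log2 change of the mitochondrial enzyme (vertical axis) against that of the cytosolic enzyme for the same amino acid (horizontal axis), with the line of equal change. WARS2, LARS2 and MARS2 lie farthest below the line and TARS2 farthest above it.

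The widest gaps with the mitochondrial member lower were for tryptophan, leucine and methionine. WARS2 went from 4.28 to 2.67 TPM while WARS was higher, a log2 difference of -1.39 between their changes. For leucine the difference was -1.23, and the ratio of LARS to LARS2 TPM went from 11.5 to 75. For methionine it was -1.04, and the ratio of MARS to MARS2 went from 48.6 to 199.1. The differences use the pseudocount of 1, while the ratios are plain. On plain TPM the log2 shift of the ratio was 2.7 for leucine, 2.04 for methionine and 1.55 for tryptophan. In PLC-8024-GDF1 the ratios rest on LARS2 at 0.304 and MARS2 at 0.648 TPM, low values of unknown counting error. The widest gap the other way was for threonine, at 0.96, where TARS fell and TARS2 did not.

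Within a library the cytosolic member was the more abundant in 16 of the 18 pairs, in both libraries. The median ratio of cytosolic to mitochondrial TPM was 4.98 in PLC-8024-CTR and 4.96 in PLC-8024-GDF1. The exceptions were cysteine and isoleucine. CARS had 0.621 times the TPM of CARS2 in PLC-8024-CTR and 0.411 times in PLC-8024-GDF1. IARS had 0.757 and 0.502 times that of IARS2.

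Changes also moved with the base composition of the transcripts. Over the 37 members the Spearman rho of log2 change and GC content of the canonical transcript was 0.29, and over 14640 genes it was 0.30, as a description. With the trend over all genes subtracted, the median of the 37 was -0.26, and 27 members lay below the trend. The cytosolic median was then -0.17 and the mitochondrial one -0.46. Relative to that trend IARS (-1.18) and MARS2 (-1.26) were past 2-fold lower and WARS (1.08) past 2-fold higher, whereas TARS, HARS2, IARS2 and LARS2 were not past it. RARS, RARS2 and TARS2 lay above the trend, at 0.31, 0.19 and 0.03. The part of base composition in these changes was not tested further.

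To show what the promoters share, 11 short letter strings were searched on both strands of the 300 bases around each RefSeq start (250 before and 50 after), in 35116 promoters of 27305 genes. Of the members, 30 had a promoter in that table, 16 cytosolic and 14 mitochondrial. The strings were chosen with the values known. The amino acid response element, which ATF4 and its partners bind, was written TGATGNAA. It occurred in 8 of the 30 members and in 4.46% of all genes. Of the 8, 7 were cytosolic (IARS, TARS, NARS, GARS, CARS, MARS and AARS) and 1 was mitochondrial (YARS2). The stricter form TGATGCAA, which the first string contains, occurred in 6 members, all cytosolic, and in 1.08% of genes. The windows are shown because the cytosolic enzymes with and without the element are compared by their changes. Each runs 5′ to 3′ on the gene's own strand, was copied from RefSeq (GRCh38.p14) and placed on GRCh37 by exact match, with the match in capitals. A match reading TTNCATCA is the same string on the other strand.
IARS, minus strand, chr9:95055974-95056003: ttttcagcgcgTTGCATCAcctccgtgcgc
TARS, plus strand, chr5:33441062-33441091: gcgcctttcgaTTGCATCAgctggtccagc
NARS, minus strand, chr18:55289036-55289065: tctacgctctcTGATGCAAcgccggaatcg
GARS, plus strand, chr7:30634450-30634479: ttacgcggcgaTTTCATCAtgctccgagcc
CARS, minus strand, chr11:3078637-3078666: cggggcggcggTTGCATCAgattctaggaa
MARS, plus strand, chr12:57881836-57881865: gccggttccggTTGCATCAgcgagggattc
AARS, minus strand, chr16:70323578-70323607: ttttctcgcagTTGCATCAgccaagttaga
YARS2, minus strand, chr12:32909010-32909039: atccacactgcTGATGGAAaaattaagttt

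In IARS, TARS, CARS, MARS, NARS and GARS the match began within 33 bases of the start site (at -13, 3, -2, -4, 15 and -33), and in AARS and YARS2 it began at -187 and -197. The 7 cytosolic enzymes with the element were all lower, from -1.53 to -0.20, with a median of -0.76. The 9 without it had a median of -0.32, and 6 of them were lower, with values from -0.68 (EPRS) to 0.86 (WARS). Of all genes, 63.3% were lower. After rescaling, AARS in the set with the element came to 0.0055, and RARS in the set without it to 0.12. Both were then no longer lower, and 51.6% of all genes were lower. DARS, LARS, VARS and YARS had no promoter entry and are in neither set. Of these, DARS and VARS were lower and LARS and YARS were higher. The set with the element holds the most strongly lowered cytosolic enzymes IARS, TARS, NARS and GARS, and also AARS, whose change was that of the median gene. Other strings split the cytosolic members too. The median was -0.76 for the 3 with the interferon string named next, -0.56 for those with ETS, CCAAT or gamma-activated strings, -1.53 for IARS alone with an E-box and 0.05 for the pair with TATAAA, and the medians without each of these strings lay between -0.46 and -0.45. These splits were not tested. A match describes these letters only, and no binding was measured here.

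The interferon-stimulated response element, searched as GAAANNGAA, occurred in WARS, GARS, IARS and EARS2 and in 9.86% of all genes. In WARS it began 55 bases before the downstream of its RefSeq starts, and it is shown because interferon is the best known inducer of this gene.
WARS, minus strand, chr14:100841721-100841749: tttcagaaggGAAACTGAAagaaagaggg
GARS and IARS hold the same string and had changes of -0.76 and -1.53, so members with this string did not share a direction.

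The other strings searched ranged from rare to common. CCGGAAGT (ETS) occurred in 8 of the 30 members and 4.95% of genes, GCGCANGCG (NRF1) in 6 and 9.02%, AAGATGGCG (YY1) in 5 and 2.14%, and TTCNNNGAA (gamma-activated site) in 5 and 9.38%. CACGTG (E-box) occurred in 4 and 8.77%, TATAAA in 2 and 14.0%, CCAAT in 16 and 39.7%, and GGGCGG (GC box) in 23 and 48.3%. HARS and HARS2, which share the stretch between their starts, both hold CCGGAAGT. MARS2 holds CACGTG, as do IARS, CARS2 and EARS2.

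The genes of the amino acid response, among them ATF4 itself and its targets outside the family, were mostly lower. Of 20 listed genes, 19 were lower, where 63.3% of all genes were, and the median was -0.44. The 3 past 2-fold stand beside 9.61% of all genes that fell. Those past 2-fold were PSAT1 of serine synthesis, the cystine transporter SLC7A11 and the pseudokinase TRIB3. PSAT1 fell from 114.4 to 53.1 TPM, a change of -1.09. TRIB3 fell from 121.2 to 57.6 TPM, a change of -1.06. SLC7A11 fell from 3.33 to 1.06 TPM, a change of -1.07. None of these 3 was past 2-fold after rescaling, when 15 of the 20 were lower, beside 51.6% of all genes, and the median was -0.23.

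ATF4 went from 821.9 to 604.9 TPM, a change of -0.44. DDIT4, an inhibitor of mTORC1 signalling, went from 845.7 to 453.2 TPM, a change of -0.90, and CEBPB, a transcription factor, from 354.6 to 200.9 TPM, a change of -0.82. DDIT3, the stress transcription factor also called CHOP, was the only gene of the list that was not lower. It stood at 75.9 and 77.4 TPM and shares 355 exonic bases with MARS on the opposite strand. The plot of partner genes shows the amino acid response genes between -1.09 and 0.03.

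**Figure D4:**
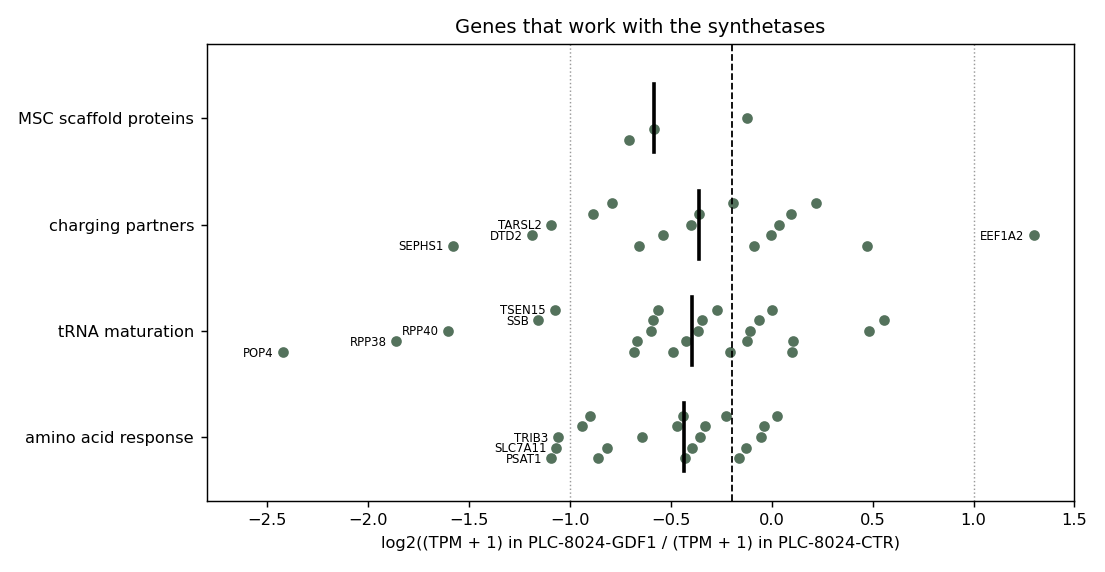
log2 change of each gene in the lists of multi-synthetase complex scaffold proteins, charging partners, tRNA maturation factors and amino acid response genes, 1 point per gene, with genes past 2-fold named. Solid bars are list medians, the dashed line is the median of all genes (-0.20), dotted lines mark 2-fold, and the vertical offset of points has no meaning. POP4, RPP38 and RPP40 lie farthest left, and EEF1A2 lies farthest right.

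Charging partners are the factors that carry, edit or finish the charged transfer RNA. Of 17 measured, 12 were lower, with a median of -0.36, a share near the 63.3% of all genes. The 3 that fell 2-fold and the 1 that rose stand beside 9.61% and 4.82% of all genes. SEPHS1 fell from 56.3 to 18.1 TPM (-1.58). It is related to SEPHS2, the enzyme that makes selenophosphate for selenocysteine, which went from 352.1 to 223.2 TPM (-0.66). TARSL2, a threonyl-tRNA synthetase close to TARS that the symbol rule leaves out, fell from 6.0 to 2.28 TPM (-1.09), and DTD2, a deacylase that clears mischarged transfer RNA, from 4.64 to 1.47 TPM (-1.19). EEF1A1, the elongation factor that delivers charged transfer RNA to cytosolic ribosomes, went from 3682 to 2531 TPM, a change of -0.54. Its mitochondrial counterpart TUFM went from 424.0 to 588.1 TPM, a change of 0.47, and EEF1A2, the form of muscle and neurons, rose from 4.16 to 11.7 TPM, a change of 1.3. After rescaling, 10 of the 17 were lower, beside 51.6% of all genes, and TARSL2 was no longer past 2-fold (-0.95). The 2 still past 2-fold lower stand beside 6.85% of all genes. EEF1A2 was still past 2-fold higher (1.49), as were 6.97% of all genes.

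The tRNA maturation genes, which trim, splice and end the transfer RNA before it can be charged, were lower in 19 of 24 cases, with a median of -0.40, where 63.3% of all genes were lower and 9.61% fell. The 5 that fell were 3 subunits of RNase P, the enzyme that cuts the 5′ leader, with SSB and TSEN15. POP4 fell from 46.7 to 7.89 TPM (-2.42), RPP38 from 29.0 to 7.26 TPM (-1.86) and RPP40 from 14.7 to 4.16 TPM (-1.60). SSB, the La protein that holds the 3′ end of new transfer RNA, fell from 111.1 to 49.2 TPM (-1.16). TSEN15, a subunit of the splicing endonuclease, fell from 16.7 to 7.39 TPM (-1.07). The drop was not shared by all RNase P subunits, since RPP21 went from 141.9 to 198.7 TPM (0.48) and RPP25 stood at 135.0 and 135.2 TPM. HSD17B10, a subunit of mitochondrial RNase P, was at 465.1 and 499.8 TPM (0.10). After rescaling, POP4, RPP38 and RPP40 remained past 2-fold, beside 6.85% of all genes past 2-fold lower. Of the 24, 16 were then lower, beside 51.6% of all genes.

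Several members overlap other genes in position, and some have named pseudogenes. There were 15 whose span overlaps another gene with at least 1 TPM. Of these, VARS and YARS2 shared no exonic bases with their neighbours. Whether reads were shared with the neighbours was not tested. Of 14 named synthetase pseudogenes, 13 were listed at 0.0001 TPM or less in both libraries.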

How the data were processed

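RNA-seq covered 1 library of control and 1 of GDF1-expressing PLC-8024 cells. The authors trimmed reads (Trimmomatic 0.36, FastQC 0.11.2), aligned them to hg19 with HISAT2 2.1.0, quantified genes with StringTie 1.3.3b and deposited TPM values. The notes also name bedtools 2.26.0. The methods name RefSeq annotation, whereas the files list Ensembl identifiers. Here, log2 changes used a pseudocount of 1, and genes needed 1 TPM or more in either library. Positions and GC content (canonical transcript, lowess span 0.3) came from GENCODE v44 on GRCh37, which held 55726 of 58174 identifiers and all 37 members. Promoters came from RefSeq. The members, lists and strings were chosen with earlier results of these data known. The text names the members (the single values of 1 are not reported here, though counts and medians include it), GDF1, CERS1, every scaffold protein, and, of the other lists, genes past 2-fold and the 3 highest in mean TPM. Marker, overlapping and other genes named, and DDIT3, were chosen after their values were seen. List names that matched no gene were other names of listed genes. The alternatives were other pseudocounts, TPM minimums, scaling, a GC trend and members left out. Calculations ran in Python 3.11.15 with pandas 2.3.3, statsmodels 0.14.6, scipy 1.17.1, numpy 2.4.6 and, for plots, matplotlib 3.10.9, and were tested on simulated data.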

Additional observations from a re-analysis of the deposited data

How the results depend on the processing

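No paired analysis was possible because control and GDF1 cells gave 1 library each. With rescaled TPM the median log2 change was -0.26 for all members and -0.19 for cytosolic enzymes, the log2 ratio of summed TPM was -0.13 for cytosolic and -0.17 for mitochondrial enzymes, 3 members were past 2-fold lower and 1 past 2-fold higher. With the GC trend subtracted the medians were -0.26 and -0.17, with 2 members past 2-fold lower and 1 higher. The mitochondrial minus cytosolic difference of medians was -0.26 with a pseudocount of 0.1, -0.28 with plain ratios, -0.051 with at least 5 TPM, -0.29 after the GC trend and 0.021 without overlapping members, of whom 22 were left, 19 of them lower. The cause of these differences was not tested. Single changes turned positive for AARS (0.0055), RARS (0.12) and TARS2 (0.12) with rescaled TPM, and for RARS (0.31), RARS2 (0.19) and TARS2 (0.034) after the GC trend. The log2 ratio of summed cytosolic TPM was -0.23 without GARS, an alternative chosen after seeing the data, and -0.25 without GARS and KARS, against -0.33 with both. Using no filter on low values could change no value, since all 37 members had at least 1 TPM. All 37 members kept their side of 2-fold with a pseudocount of 0.1 and with plain ratios. The direction of a change cannot differ between these settings. TPM holds no depth, and low values such as those of MARS2 and LARS2 have unknown counting error.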
